A study of Mus musculus with 18 samples.

Results

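The Hox genes of the mouse were examined in chromatin immunoprecipitation sequencing (ChIP-seq) of cardiomyocyte-enriched heart cell populations. The 38 members were 10 genes of cluster A (chromosome 6), 10 of cluster B (chromosome 11), 9 of cluster C (chromosome 15) and 9 of cluster D (chromosome 2), of 21631 protein-coding genes in all. Each member was given every region of the authors' 4 deposited lists that overlapped its gene span or the 5 kb on either side (mm10). The lists hold only regions that the authors found to differ between genotypes, so a share covered by listed regions is not the full extent of a mark. This gave 154 of 621134 listed G9a regions, 117 of 716658 H3K9me2 regions, 168 of 504986 H3K27me3 regions and 109 of 534606 Mef2c regions. Windows of neighbouring members overlap, so many regions belong to several members and the members are not independent of each other.

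Hox genes encode homeodomain transcription factors that give cells a position along the head-to-tail axis of the embryo. Within a cluster the order on the chromosome follows the order of expression, so that low paralogue numbers act towards the head and high ones towards the tail. Outside their own domain the clusters are a classical target of the Polycomb repressive complexes, whose second complex methylates lysine 27 of histone H3 (H3K27me3), while trithorax proteins act against this. Anterior Hox genes mark progenitors of the heart in the embryo, and the posterior ones pattern the trunk, limbs and urogenital tract.

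The KO mice were G9a flox/flox and carried alphaMHC-MerCreMer +/-, and the Cre mice carried alphaMHC-MerCreMer +/- alone, both on C57BL/6J. The transgene is a tamoxifen-regulated Cre recombinase under the promoter of the alpha myosin heavy chain gene, which is active in cardiomyocytes, so deletion is limited to that cell type and other cells of the enriched populations keep the gene. G9a (gene Ehmt2) places mono- and dimethylation on lysine 9 of histone H3, H3K9me2 is that mark, and Mef2c is a DNA-binding activator of muscle genes. Each of the 4 targets had 2 KO and 2 Cre libraries, which the study calls biological replicates, and 1 input library per genotype was not analysed here. The sources used here do not state animal age, tamoxifen schedule, pooling of animals or sequencing depth. The listed values carry no replicate number, so first and second value only name them.

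The libraries had listed values whose sums ranged from 44305272 to 114744154 per library, which are sums over chosen regions and no read depth. The medians of all listed values were 86 and 75 in KO and 104 and 97 in Cre for G9a, 95 and 102 in KO and 86 and 75 in Cre for H3K9me2, 105 and 114 in KO and 134 and 132 in Cre for H3K27me3, and 69 and 76 in KO and 93 and 89 in Cre for Mef2c. On the log2 scale these medians differed between KO and Cre by -0.32, 0.29, -0.28 and -0.33 in that order of targets. Listed H3K27me3 regions covered 1.20% of the windows of 8 cardiomyocyte markers, against 22.9% for 5 endothelial, 46.1% for 5 fibroblast, 28.7% for 4 immune and 39.5% for 4 smooth muscle and pericyte markers. Low shares were not particular to cardiomyocyte genes, since 10 trithorax and H3K27 demethylase genes had 1.42% and 9 Hox cofactors 7.05%. These shares therefore do not measure the purity of the cells, which was not tested. RNA of Ehmt2 was not analysed here, and G9a signal was still listed in KO libraries. The share of other cell types in the Hox values was not tested, and in bulk chromatin fewer cells with a mark and less of the mark per cell cannot be told apart.

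The Hox clusters lay largely under listed H3K27me3 regions. Listed H3K27me3 regions covered 80.5% of the Hox windows, against 17.5% of all protein-coding gene windows. The 38 members ranged from 46.9% of the window (Hoxb5) to 97.4% (Hoxa11), with a median of 82.0%, a level that 426 of 21631 genes (1.97%) reached. Signal was high as well as wide. The median mean signal per kb of region was 803 at Hox and 155 in the whole H3K27me3 list, and the median region was 1750 bp wide at Hox and 750 bp in the whole list. Each of the 38 members lay above the whole-list median in each of the 4 libraries, with values from 446 to 1259 per kb. Of the 168 regions, 86 directly abutted the next one, and each of these neighbours had the opposite direction. The same held for all abutting Hox pairs of the other lists, 8 for G9a, 3 for H3K9me2 and 1 for Mef2c. The caller is not stated, and if it joins touching regions of the same direction, this alternation was fixed in advance.

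**Figure D1:**
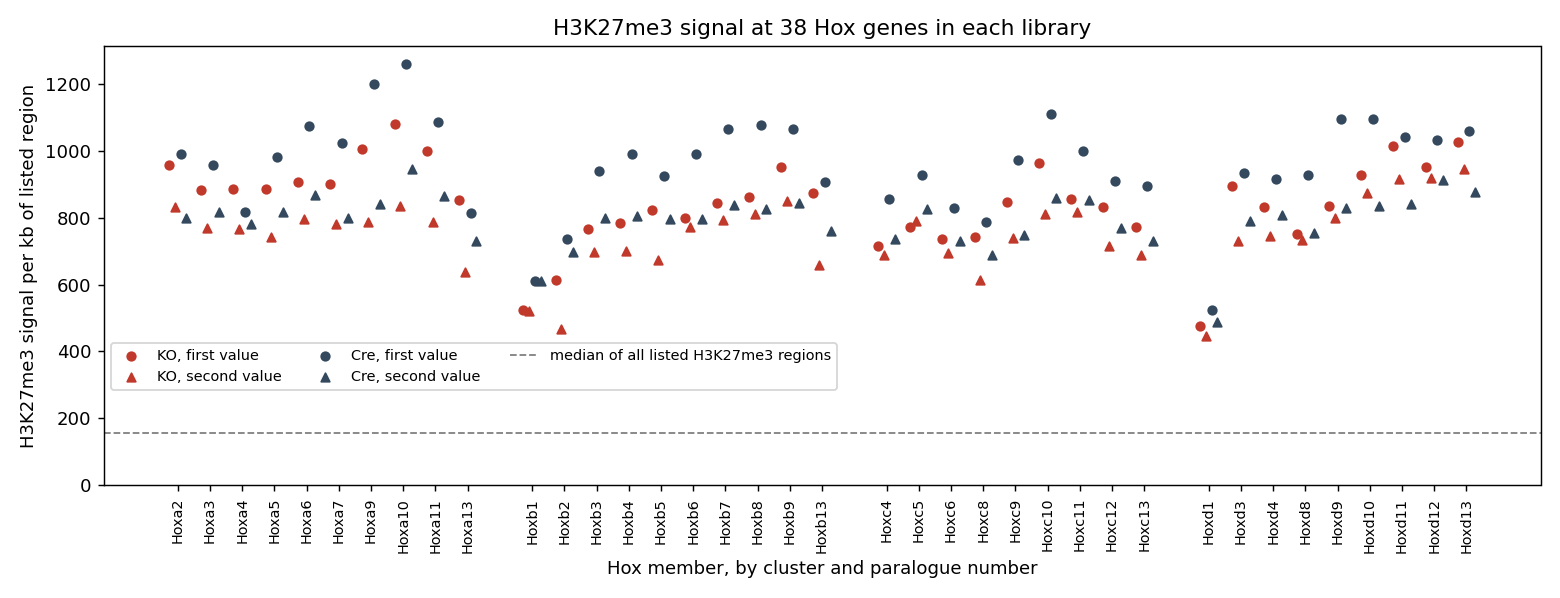
H3K27me3 signal per kb of listed region (vertical axis) at each of the 38 Hox members, ordered by cluster and paralogue number, with 1 point per library (KO red, Cre dark; circles first value, triangles second value) and the whole-list median dashed. Each point lies above the dashed line at 155, and all points of Hoxd1 lie below those of the other cluster D members.

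The other 3 targets did not share this density. Listed G9a regions covered 25.5% of the Hox windows, against 16.0% of all gene windows. H3K9me2 covered 17.4% against 17.6%, and Mef2c 16.9% against 13.7%. Their median signal per kb at Hox was 139.8 for G9a, 134 for H3K9me2 and 137 for Mef2c, against 140 for G9a, 139.6 for H3K9me2 and 135 for Mef2c over the whole lists. H3K9me2 was absent from the authors' deposited list at Hoxb7 and Hoxb8, trunk-patterning genes of the middle of cluster B, and these were the 2 members with no region in a list. Central members had 9.23% of their windows under listed H3K9me2 regions, against 21.96% for anterior and 15.3% for posterior members.

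**Figure D2:**
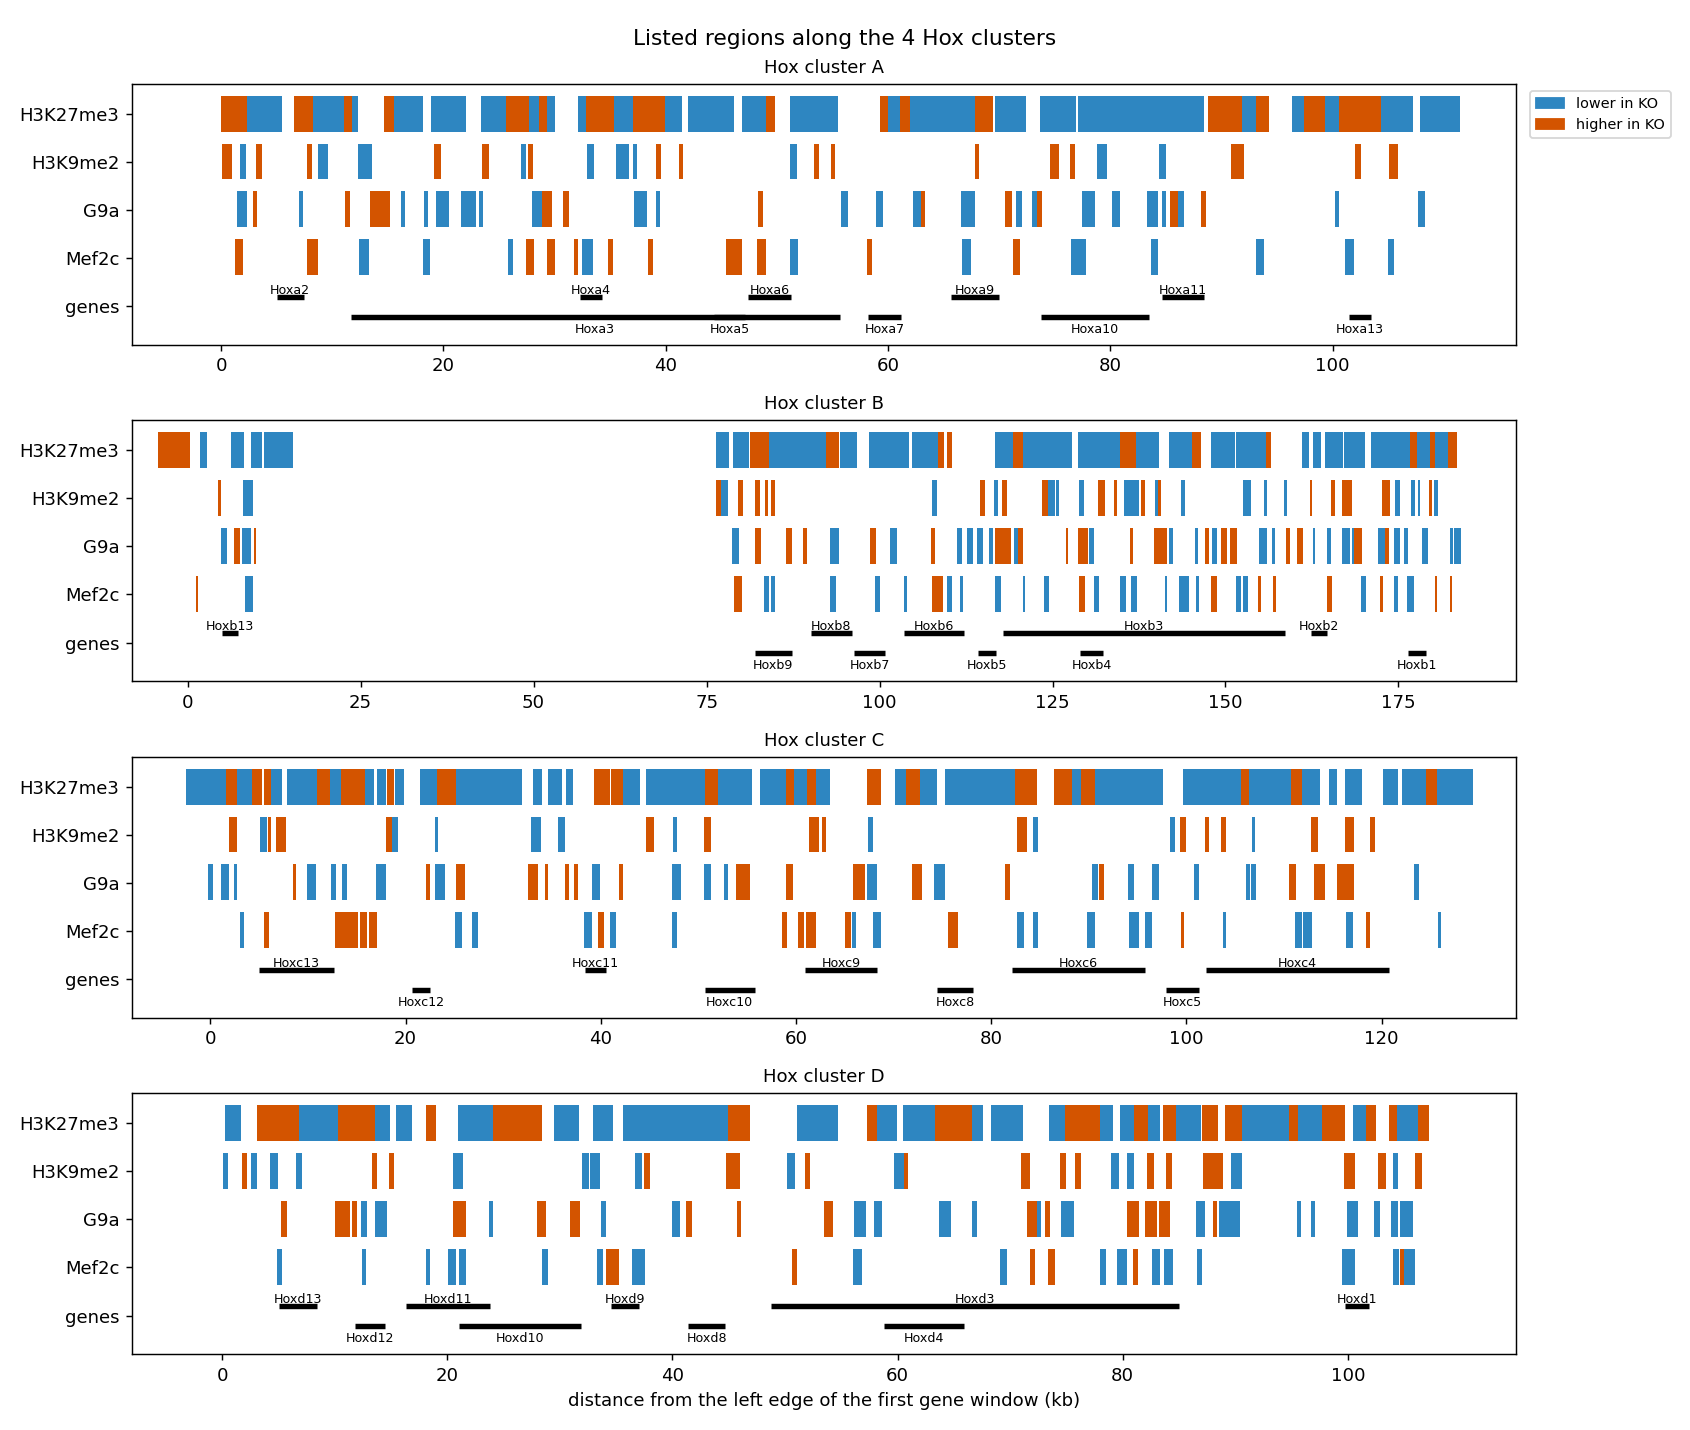
Listed regions of the 4 targets along each Hox cluster, with distance in kb from the left edge of the first gene window on the horizontal axis, blue for lower and orange for higher in KO, and gene spans in black. Listed H3K27me3 regions of both directions fill most of each cluster, whereas H3K9me2, G9a and Mef2c regions are short and scattered, with no H3K9me2 region at Hoxb7 and Hoxb8.

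The level of H3K27me3 along each cluster was also taken per kb of gene window, with each region's value shared evenly along it. By this measure a posterior gene had the highest Cre mean in each of the 4 clusters. Hoxa10, needed in the uterus and hind limb, had 966 and 734 per kb of window in KO and 1134 and 864 in Cre. Hoxb9, a gene of the rib cage, had 910.1 and 817 per kb of window in KO and 1019 and 804 in Cre. Hoxc10, a gene of lumbar patterning, had 917 and 765 per kb of window in KO and 1049 and 806 in Cre. Hoxd13, a digit gene, had 891 and 821 per kb of window in KO and 922 and 764 in Cre.

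The lowest levels stood at anterior or central genes. Hoxa7, a trunk gene, had 661 and 561 per kb of window in KO and 737 and 566 in Cre. Hoxb5, a gene of the neck and shoulder, had 382 and 323 per kb of window in KO and 394 and 346 in Cre. Hoxc4, a gene of the neck, had 528 and 505 per kb of window in KO and 609 and 544 in Cre. Hoxd1, a gene of sensory neuron development, had 439.7 and 414 per kb of window in KO and 468 and 425 in Cre. Taken per kb of listed region instead, the lowest Cre means were at Hoxa13, Hoxb1, Hoxc8 and Hoxd1 and the highest at Hoxa10, Hoxb9, Hoxc10 and Hoxd12. For the 4 genes with the highest level KO and Cre values overlapped. The spread between the 2 libraries of a genotype ran one way, since the first value was the higher at 37 of 38 members in KO and at 38 of 38 in Cre. By single region, the first value was the higher in 77.4% of Hox regions in KO and 82.1% in Cre. Over the whole H3K27me3 list these shares were 46.5% and 51.6%. This order was not particular to Hox. Summed over 2592 strongly marked regions outside Hox, described below, the first value was also the higher in both genotypes.

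Posterior members carried more H3K27me3 than anterior ones in each of the 4 libraries. Summed over posterior windows (paralogues 9 to 13, 16 members) the signal was 904 and 771 in KO and 1004 and 807 in Cre. These values and those of the other 2 classes are per kb of listed region. Over anterior windows (paralogues 1 to 4, 11 members) it was 769 and 685 per kb in KO and 866 and 748 in Cre. Central members (5 to 8, 11 members) lay between, at 806 and 720 in KO and 936 and 771 in Cre. The classes share chromatin, since the Hoxa3 span runs over Hoxa4, Hoxa5 and Hoxa6. A region was counted in each class it touched, with 86 anterior, 34 central and 73 posterior regions of 168 in all. Of the 34 central regions, 31 lay in windows of several members. Across the 38 members, which share libraries and regions, paralogue number and H3K27me3 level in Cre had a Spearman rho of 0.39, given as a description. The difference between posterior and anterior sums, on the log2 scale within a library, was 0.13 and 0.07 in KO and 0.11 and 0.01 in Cre. KO thus exceeded Cre by 0.04 with overlapping values (exact permutation test, two-sided, p = 0.667, smallest possible p 0.333), and without the second Cre value this difference was -0.01.

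The H3K27me3 sums of the genotypes overlapped. The summed signal over all Hox windows was 322164 and 282613 in KO, against 360533 and 299703 in Cre, a log2 ratio of -0.12 with overlapping groups (exact permutation test, two-sided, p = 0.667). In each list the exact test of 2 against 2 libraries cannot give a p below 0.333. Of the 168 regions the authors' deposited list gave 103 (61.3%) as lower and 65 as higher in KO, against 63.3% lower in the whole list. The KO and Cre pairs did not overlap, called apart from here on, in 78 of 168 regions (46.4%), against 67.1% in the whole list. The sizes were small, with a median log2 ratio of -0.29 in lower and 0.24 in higher Hox regions, against -0.90 and 0.82 in the whole list. With limma across all listed regions, 9 Hox regions (5.36%) had an unadjusted p under 0.05, against 15.3% in the whole list, and 8 of these were lower in KO, a direction with 12.3% in the whole list. None passed after Benjamini-Hochberg adjustment, where the smallest adjusted p was 0.322.

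**Figure D3:**
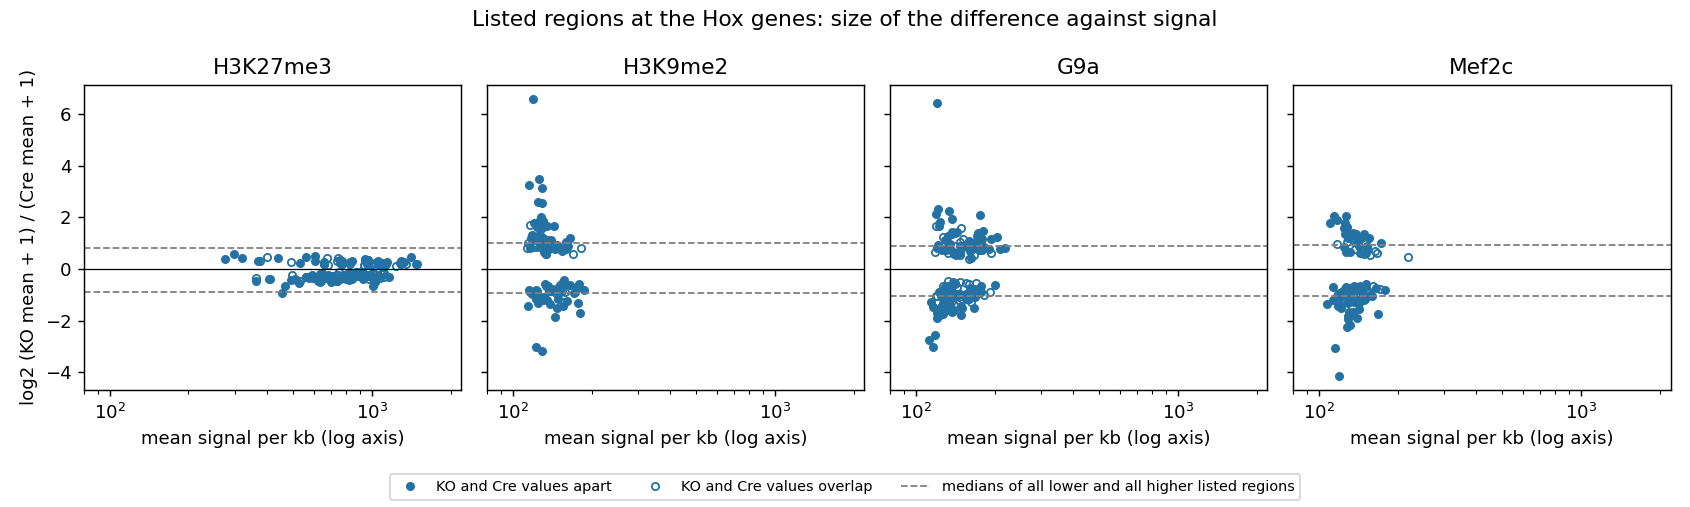
Log2 ratio of KO to Cre mean (vertical axis, pseudocount 1) against mean signal per kb (log axis) for each listed region at the Hox genes, filled where KO and Cre values lie apart, with dashed lines at the medians of all lower and all higher regions of that list. H3K27me3 regions sit at high signal and within the dashed lines at -0.90 and 0.82 but for 1 region, while the other targets spread around theirs.

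Strongly marked regions elsewhere gave a closer comparison, which was added after the values were seen. Outside Hox, 2592 H3K27me3 regions reached 659 per kb, the lower quartile of the Hox regions, and 44.4% of them were lower in KO, with medians of -0.27 in lower and 0.26 in higher regions. Their summed signal was 4402990 and 4031636 in KO and 4535513 and 3923957 in Cre, a log2 ratio of 0.00. The log2 of the Hox sum over theirs was -3.77 and -3.83 in KO and -3.65 and -3.71 in Cre. Both KO libraries lay below both Cre libraries, by 0.12 (exact permutation test, two-sided, p = 0.333, the smallest possible). The Hox sum itself depends on scaling, since with libraries brought to the same median listed value its log2 ratio was 0.16 in place of -0.12, while a ratio within a library is free of that choice.

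At 34 of the 38 members the summed H3K27me3 signal was lower in KO (89.5%), against 71.4% of the 16936 genes with a listed H3K27me3 region, and the members' median log2 ratio was -0.14, against -0.26 over those genes. The count depends on scaling, since with libraries at the same median 1 member, Hoxb2, had a lower sum (2.63%), against 48% of genes. KO and Cre sums were apart at 8 of 38 members (21.1%), against 64.9% of genes. At these 8 (Hoxb1, Hoxb2, Hoxb3, Hoxb4, Hoxc4, Hoxc5, Hoxd1 and Hoxd8) KO was the lower, which holds for 50.4% of genes. Of the 8, 6 are anterior, 2 central and 0 posterior. The lowest ratio was at Hoxb2, a hindbrain gene, with 4687 and 3568 in KO against 5638 and 5331 in Cre (log2 ratio -0.41). The 4 members above 0 were Hoxa4, Hoxd11, Hoxd13 and Hoxa2, with ratios of 0.05, 0.04, 0.02 and 0.00.

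Cluster B led the lower regions. A block in the Hoxb3 span, also in the windows of Hoxb4 and Hoxb5 (chr11:96310001-96317200), had its highest -log10 p, and there the authors' deposited list gave 5653 and 4491 in KO and 7259 and 6172 in Cre. The groups did not overlap (limma log2 difference -0.41, SE 0.143, unadjusted p = 0.014). Hoxb3 acts in the hindbrain and neck, and Hoxb4 in blood stem cells. At the Hoxb1 block (chr11:96360351-96366050), which holds the start of the gene, the list gave 2457 and 2347 in KO and 3056 and 3377 in Cre. A narrow region between Hoxb2 and Hoxb3 (chr11:96350401-96351350) had the largest H3K27me3 difference at Hox, with 368 and 227 in KO and 600 and 540 in Cre (log2 ratio -0.94). Summed over cluster B the values were 78994 and 71376 in KO and 92546 and 77986 in Cre, a log2 ratio of -0.18 with overlap by the first KO library. Relative to the other 3 clusters within each library, cluster B was lower in KO by 0.07 and cluster D higher by 0.06, both with groups apart (exact permutation test, two-sided, p = 0.333 each). Without the first KO value the cluster B difference was -0.04.

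The authors' deposited list also held higher blocks. At Hoxb9 (chr11:96270651-96273350, over one end of the gene span) it gave 4092 and 4736 in KO and 3623 and 2815 in Cre, apart (limma log2 difference 0.46, SE 0.165, unadjusted p = 0.0155). This was the only higher region among the 9 with an unadjusted p under 0.05. Beyond the end of Hoxa13 (chr6:52254851-52256700) it gave 1303 and 1331 in KO and 947 and 899 in Cre, also apart. At Hoxd3, a gene of the upper neck, a lower block (chr2:74748001-74750200) had 2072 and 1416 in KO and 3038 and 2414 in Cre. The block that follows (chr2:74750251-74751650) was listed as higher with overlap, 1835 and 1142 in KO and 1169 and 1130 in Cre. The widest Hox region, 11350 bp over Hoxa10 and Hoxa11, had 11417 and 8648 in KO and 12867 and 10401 in Cre, with overlapping groups.

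Of the 38 members, 22 have at least 1 promoter in the RefSeq table (GRCm38.p6), 24 promoters in all, each running from 250 bases before the gene start to 50 after it. These promoters had a median of 14.5 CpG per 300 bases, against 7 over all promoters. The median was higher, at 19, over 892 promoters elsewhere in H3K27me3 regions of at least 659 per kb. The start of 18 of the 24 (75%) lay in a listed H3K27me3 region, against 27.9% of all promoters. Of these 18, 6 (33.3%) lay in a higher region, against 41.2% of all starts in a listed H3K27me3 region and 64.0% of starts elsewhere in regions of at least 659 per kb. The 18 starts lay in 16 regions, of which 6 (37.5%) were higher. Both Hoxa10 starts and the Hoxa11 start shared 1 lower region. The 250 bases before the start are shown for both promoters with the most CpG, Hoxa13 and Hoxd13, whose starts lay in regions higher in KO (log2 ratios 0.20 and 0.21), and for the CpG-poor Hoxa9 and Hoxd4, whose starts lay in lower regions (log2 ratios -0.39 and -0.21). Capitals mark each CpG, of which these stretches hold 35, 31, 3 and 3 in that order.
Hoxa13, chr6:52260881-52261130, minus strand: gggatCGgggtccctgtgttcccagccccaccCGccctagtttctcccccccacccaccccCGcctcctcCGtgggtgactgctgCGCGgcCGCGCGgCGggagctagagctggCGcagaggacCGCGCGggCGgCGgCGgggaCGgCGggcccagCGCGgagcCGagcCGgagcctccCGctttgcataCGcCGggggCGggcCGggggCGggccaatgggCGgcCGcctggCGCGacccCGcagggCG
Hoxd13, chr2:74667975-74668224, plus strand: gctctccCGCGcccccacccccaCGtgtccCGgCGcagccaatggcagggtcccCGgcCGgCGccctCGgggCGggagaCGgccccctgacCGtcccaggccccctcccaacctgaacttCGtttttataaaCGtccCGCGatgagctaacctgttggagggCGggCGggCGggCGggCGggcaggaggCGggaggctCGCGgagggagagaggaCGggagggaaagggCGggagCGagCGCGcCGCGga
Hoxa9, chr6:52227371-52227620, minus strand: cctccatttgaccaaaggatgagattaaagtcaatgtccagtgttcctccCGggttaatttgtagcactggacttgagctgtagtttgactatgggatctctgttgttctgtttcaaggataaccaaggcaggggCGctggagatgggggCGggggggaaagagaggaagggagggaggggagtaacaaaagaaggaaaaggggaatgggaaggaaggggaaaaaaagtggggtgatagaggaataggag
Hoxd4, chr2:74721728-74721977, plus strand: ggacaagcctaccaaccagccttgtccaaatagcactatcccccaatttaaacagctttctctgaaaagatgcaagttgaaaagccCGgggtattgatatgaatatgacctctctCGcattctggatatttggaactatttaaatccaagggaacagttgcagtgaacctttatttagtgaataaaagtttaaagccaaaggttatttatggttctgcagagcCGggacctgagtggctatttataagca
The starts of both pairs lay in listed H3K27me3 regions, which does not hold for each of the 24. Of the 11 promoters with at least 20 CpG per 300 bases, 6 had the start in a listed region and 5 did not, against 12 and 1 of the 13 with fewer, a difference that was not tested. CpG number did not separate directions, since Hoxa5, with 29 CpG per 300 bases, lay in a lower and Hoxa7, with 9, in a higher region.

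Mef2c signal at Hox had the log2 ratio farthest from 0 among the 4 sums. Over all Hox windows it was 9533 and 9906 in KO, against 11568 and 12034 in Cre, apart, with a log2 ratio of -0.28 (exact permutation test, two-sided, p = 0.333). This is close to the difference of -0.33 between the medians of the whole list, and with libraries at the same median the ratio was 0.05. Of the 109 regions, 69 (63.3%) were listed as lower and 40 as higher in KO, against 61.7% lower in the whole list. Values lay apart in 76 (69.7%), against 65.9%. By limma, 9 (8.26%) had an unadjusted p under 0.05, against 11.3% in the whole list, and none passed the adjustment (smallest adjusted p 0.399). Over members, 27 of 38 (71.1%) had a lower sum in KO, against 70.8% of genes, sums were apart at 26 (68.4%), against 57.4%, and 18 of these were lower, a share of 47.4% of members against 45.3% of genes. With libraries at the same median, 19 members (50%) had a lower sum, against 43.8% of genes.

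The Mef2c ratio varied between clusters. Cluster D had 1872 and 1821 in KO against 2846 and 2676 in Cre, a log2 ratio of -0.58. Cluster B had 2781 and 2940 in KO against 3611 and 3703 in Cre, a ratio of -0.35. Both had groups apart. In cluster A the ratio was -0.09 and in cluster C -0.11, with overlapping values. Relative to the other clusters within a library, cluster D stood at -2.03 and -2.15 in KO and -1.61 and -1.81 in Cre, lower in KO by 0.38 (exact permutation test, two-sided, p = 0.333, the smallest possible). With the gene span alone this difference was -0.11 with overlap. Of the regions of cluster D, 18 of 24 were lower in KO. With libraries at the same median the ratio of cluster D was -0.25, still apart, while that of cluster B was -0.03 with overlapping groups (exact permutation test, two-sided, p = 0.667). The posterior minus anterior difference within a library was -0.45 and -0.44 in KO and -0.49 and -0.51 in Cre, higher in KO by 0.06 (exact permutation test, two-sided, p = 0.333), but with the gene span alone it turned to -0.22.

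**Figure D4:**
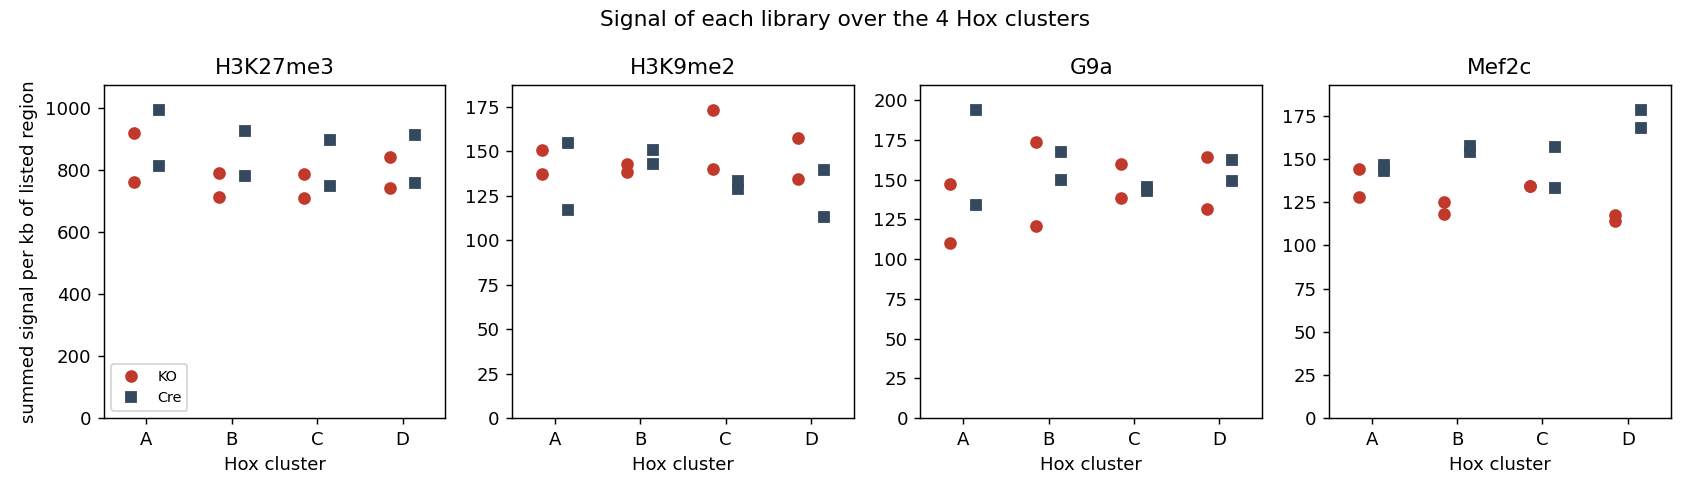
Summed signal per kb of listed region in each library (KO red circles, Cre dark squares) over Hox clusters A to D, for the 4 targets on separate axes that start at 0. KO and Cre lie apart for Mef2c in clusters B and D and for H3K9me2 in cluster C, and H3K27me3 is several-fold above the other targets.

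Single Mef2c regions had larger differences. At Hoxc6 (chr15:103005901-103006750, inside the gene span of this thoracic gene) the authors' deposited list gave 9 and 11 in KO and 195 and 190 in Cre. Signal was near absent in both KO libraries (limma log2 difference -4.14, SE 0.983, unadjusted p = 0.00171). Near Hoxd1 (chr2:74768251-74769200, 3109 bp outside the span) the list gave 60 and 85 in KO and 203 and 290 in Cre. At Hoxa9, a gene of blood progenitors, a region inside the span (chr6:52224051-52224850) had 44 and 47 in KO and 222 and 100 in Cre. Higher regions stood at Hoxc13, a hair and nail gene, with 403 and 518 in KO and 87 and 296 in Cre (chr15:102928901-102931250). At Hoxb6, a trunk gene, the list gave 356 and 316 in KO and 176 and 117 in Cre (chr11:96296901-96298450). For the 5 regions, picked for a high -log10 p from the same values, the groups did not overlap, and none passed the adjustment.

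The member sums of Mef2c ran from a log2 ratio of 1.38 at Hoxa7 to -1.42 at Hoxd12. Hoxd12 had 78 and 21 in KO and 149 and 119 in Cre, and its neighbour Hoxd13 had 63 and 80 in KO and 127 and 200 in Cre. Hoxb5 had 140 and 247 in KO and 531 and 417 in Cre over 4 regions, each listed as lower. Hoxa7 rested on 1 region with 74 and 90 in KO and 61 and 1 in Cre. These sums are small, and a member with 1 or 2 regions rests on few values.

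Sequence was searched in the 300-base promoters for a MEF2 motif (CTA, then any 4 bases, then TAG), which reads the same on both strands, and for the motif TGATNNAT of PBX and HOX pairs on both strands, which do not overlap each other in these promoters. The MEF2 motif was found in 1 of 24 Hox promoters (4.17%), against 3.69% of all promoters, and TGATNNAT in 4 of 24 (16.7%), against 8.85%. The promoter with the MEF2 motif is that of Hoxa6, a trunk gene, and its start lay in a Mef2c region lower in KO (chr6:52208601-52209300), with 12 and 99 in KO and 151 and 121 in Cre. The same start lay in an H3K9me2 region lower in KO (chr6:52208551-52209250), with 60 and 27 in KO and 127 and 193 in Cre. TGATNNAT was found at Hoxa2, Hoxb1, Hoxb8 and Hoxd11, and the Hoxb1 start lay in lower H3K27me3 and lower Mef2c regions (log2 ratios -0.42 and -1.05). Both stretches of 250 bases before the start are shown, with the motif in capitals.
Hoxa6, chr6:52208673-52208922, minus strand: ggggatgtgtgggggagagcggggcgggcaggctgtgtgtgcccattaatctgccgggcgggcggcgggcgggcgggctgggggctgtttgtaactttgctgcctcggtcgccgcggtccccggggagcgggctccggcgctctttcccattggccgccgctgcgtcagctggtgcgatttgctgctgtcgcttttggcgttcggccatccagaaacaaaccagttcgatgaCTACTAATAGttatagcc
Hoxb1, chr11:96365508-96365757, plus strand: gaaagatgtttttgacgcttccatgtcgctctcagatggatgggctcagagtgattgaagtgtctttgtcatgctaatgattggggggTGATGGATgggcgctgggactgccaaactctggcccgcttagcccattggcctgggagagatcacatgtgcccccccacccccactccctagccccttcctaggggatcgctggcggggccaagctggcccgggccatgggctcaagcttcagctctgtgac
The match lies 18 bases before the start in Hoxa6 and 162 bases before it in Hoxb1, counted from the first base of the match. A match is a description of the letters and not a site. Over all targets, Hox starts in a listed region lay in a higher one in 5 of 7 cases for G9a, against 33% of all starts, in 1 of 3 for H3K9me2, against 58.6%, and in 2 of 8 for Mef2c, against 35.1%.

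The G9a sums of the genotypes overlapped at the Hox clusters. The values were 18691 and 14401 in KO, against 19057 and 16718 in Cre, a log2 ratio of -0.12 with overlap (exact permutation test, two-sided, p = 0.667), and 0.20 with libraries at the same median. Of the 154 regions, 90 (58.4%) were listed as lower in KO, against 61.5% of the whole list. Values lay apart in 97 (63.0%), against 61.5%. By limma, 11 (7.14%) had an unadjusted p under 0.05, against 6.5% in the whole list, and none passed the adjustment (smallest adjusted p 0.454). Without the first KO value 14 of 154 Hox regions (9.09%) passed it, against 10.4% in the whole list. Of the members, 25 of 38 (65.8%) had a lower sum in KO, against 70% of genes, and sums were apart at 17 (44.7%), against 50.5%. With libraries at the same median, 11 members (28.9%) had a lower sum, against 43.8% of genes.

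The G9a balance between posterior and anterior members rested on the window and on 1 library. The log2 of posterior over anterior sums was -0.35 and -0.63 in KO and -0.64 and -0.70 in Cre, apart by 0.18 (exact permutation test, two-sided, p = 0.333, the smallest possible), though the second KO and first Cre values nearly met. The difference was 0.01 with the gene span alone, where the groups overlapped, and 0.04 without the first KO value. Cluster A relative to the other clusters stood at -2.14 and -2.20 in KO and -1.67 and -2.11 in Cre, lower in KO by 0.28 and apart (exact permutation test, two-sided, p = 0.333). That size rested on the first Cre value, without which the difference was -0.06, and with 2 kb either side the groups overlapped. The 3 members with the highest G9a ratios were Hoxc11, Hoxc9 and Hoxd13, and Hoxa13, Hoxc13 and Hoxd1 had the lowest. Hoxc11, a gene of the lumbar and hind limb level, had 629 and 631 in KO and 338 and 286 in Cre (log2 ratio 1.011). Hoxa13 had 69 and 110 in KO and 240 and 122 in Cre (log2 ratio -1.01), and Hoxd1, with 6 regions each listed as lower, had 477 and 389 in KO and 789 and 703 in Cre (-0.78). At each of these 3 the groups were apart.

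Near Hoxc11 the authors' deposited list gave both directions for G9a. A region 4826 bp outside its span (chr15:102948701-102949700) had 304 and 270 in KO and 123 and 9 in Cre. A region inside the span (chr15:102955251-102956050) had 50 and 3 in KO and 158 and 167 in Cre. Next to Hoxa9, a region (chr6:52227901-52228600) had 142 and 169 in KO and 48 and 16 in Cre. At Hoxa3, a gene of the pharyngeal arches that forms the thymus, a region inside the span (chr6:52179001-52180350) had 122 and 55 in KO and 365 and 204 in Cre. At Hoxb13, a gene of the prostate and tail end, a region over one end of the span (chr11:96194101-96195000) had 57 and 97 in KO and 185 and 260 in Cre. For the 5 regions the groups were apart, with unadjusted limma p between 0.0262 and 0.0392. They were picked for a high -log10 p from the same values, so neither result is independent of the choice. The other G9a regions picked this way had unadjusted limma p of 0.0286 (Hoxd12), 0.0754 (Hoxb3) and 0.242 (beyond Hoxd3).

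H3K9me2, the product of G9a, was slightly higher in KO over the Hox windows. The sums were 11261 and 11926 in KO, against 11002 and 10601 in Cre, apart, with a log2 ratio of 0.10 (exact permutation test, two-sided, p = 0.333). The whole-list medians differed by 0.29 in the same direction, and with libraries at the same median the Hox ratio was -0.19. Without the second KO value the ratio was 0.06, and with the gene span alone the groups overlapped. Of the 117 regions, 51 (43.6%) were listed as lower and 66 as higher in KO, against 39.7% lower in the whole list. Values lay apart in 81 (69.2%), against 65.7%. By limma, 12 (10.3%) had an unadjusted p under 0.05, against 11.1% in the whole list, with none past the adjustment (smallest adjusted p 0.4). Of the 36 members with a region, 15 (41.7%) had a lower sum in KO, against 31.3% of genes, and sums were apart at 23 (63.9%), against 53.6%. With libraries at the same median, 21 (58.3%) had a lower sum, against 56.4% of genes.

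Cluster C had the highest H3K9me2 ratio of the 4 clusters over the full windows, with 2255 and 2793 in KO and 2150 and 2075 in Cre (log2 ratio 0.25, apart). Without the second KO value its ratio was 0.09, below 0.16 in cluster A and 0.10 in cluster D, and with a -log10 p of at least 5 cluster D, at 0.93, exceeded cluster C, at 0.60. Cluster B had the lowest, with 3649 and 3539 in KO and 3858 and 3646 in Cre (-0.06). Relative to the other clusters within a library, cluster C was higher in KO by 0.19 and cluster B lower by 0.24, both apart (exact permutation test, two-sided, p = 0.333 each). Without the second KO value these differences were 0.04 for cluster C and -0.15 for cluster B. Central members had 1484 and 1869 in KO and 1197 and 1364 in Cre (0.38), but this was 0.22 without the second KO value and -0.10 with the gene span alone. The posterior minus anterior difference within a library was lower in KO by 0.07 (exact permutation test, two-sided, p = 0.333), but its direction turned with the window, at 0.36 with the gene span alone and 0.10 with 2 kb either side. It was 0.05 where the -log10 p reached 5 and 0.01 with regions of 1 position class.

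The H3K9me2 region with the highest -log10 p at Hox stood next to Hoxb13. There (chr11:96197351-96198750, 741 bp outside the gene span) the authors' deposited list gave 31 and 40 in KO and 262 and 394 in Cre, and a -log10 p of 57.2, the highest of the Hox regions of all 4 lists. The groups were far apart (limma log2 difference -3.15, SE 0.620, unadjusted p = 0.000702, adjusted p = 0.4). The G9a region that overlaps it (chr11:96197251-96198500) had 228 and 73 in KO and 270 and 302 in Cre, apart. Of the 4 G9a regions of Hoxb13, 2 were listed as lower and 2 as higher in KO, and a higher one follows the H3K9me2 region (chr11:96198901-96199250), with 71 and 87 in KO and 50 and 43 in Cre. Beyond the end of Hoxd3, in the span of the long noncoding gene Haglr (chr2:74750351-74752100), the list gave 390 and 333 in KO and 63 and 113 in Cre (limma log2 difference 2.08, SE 0.530, unadjusted p = 0.00362). At Hoxa9 a region inside the span (chr6:52225201-52225600) had 109 and 82 in KO and was listed at 0 in both Cre libraries, so no fold is given. In the Hoxa3 span near Hoxa4 (chr6:52184401-52184850) the list gave 10 and 13 in KO and 123 and 75 in Cre. In the Hoxc4 span near Hoxc5 (chr15:103018051-103018450) it gave 75 and 112 in KO and 3 and 12 in Cre.

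**Figure D5:**
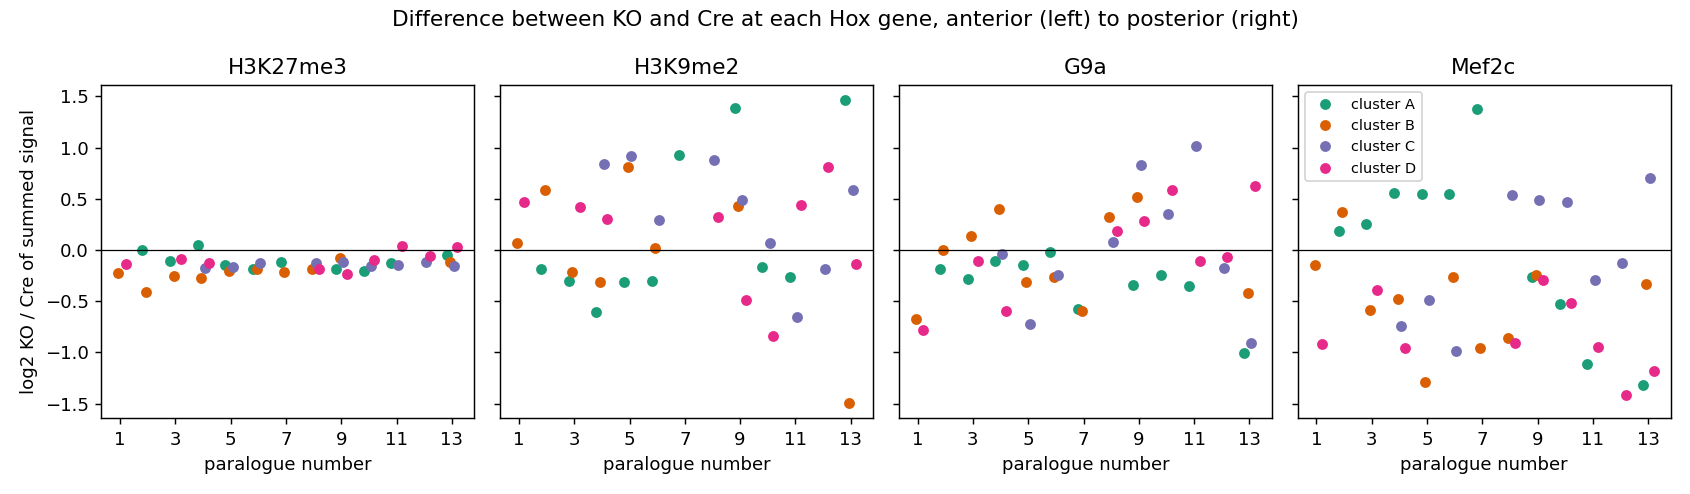
Log2 ratio of KO to Cre of the summed signal at each Hox member (vertical axis) against its paralogue number (horizontal axis, anterior left, posterior right), coloured by cluster, for the 4 targets. H3K27me3 ratios lie between -0.41 and 0.05, while ratios of the other targets reach beyond 1 in both directions.

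Along the axis the ratios had no strong order. Across members, which share libraries and regions, the Spearman rho of paralogue number with the log2 ratio of KO to Cre was 0.32 for H3K27me3, 0.14 for G9a, -0.02 for H3K9me2 and -0.18 for Mef2c, given as descriptions.

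At 3 loci, chosen after their values were seen, several targets were listed within a few kb. At the start of Hoxb9 the H3K27me3 block described above held an H3K9me2 region with 178 and 133 in KO and 80 and 22 in Cre. A G9a region over it had 230 and 79 in KO and 50 and 36 in Cre, and a Mef2c region across its far edge had 45 and 65 in KO and 183 and 166 in Cre. The first 3 targets were thus higher and Mef2c lower in KO, with groups apart for each. In Haglr beyond Hoxd3, a G9a region inside the higher H3K9me2 region (chr2:74751251-74751600) had 75 and 94 in KO and was listed at 0 in both Cre libraries. Near Hoxc11 the pair went opposite ways, since the higher G9a region overlapped an H3K9me2 region (chr15:102948951-102950050) with 154 and 31 in KO and 195 and 412 in Cre.

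Contact between targets was counted over all Hox regions. Of the 90 G9a regions lower in KO, 31 touched an H3K9me2 region (34.4%), against 50.8% in the whole list, and 11 of these touched lower regions only and 19 higher regions only. Higher regions were thus 63.3% of contacts in a single direction, against 56.0% in the whole list. For the 64 G9a regions higher in KO this went the other way. Of these, 20 touched an H3K9me2 region, 8 lower regions only and 10 higher regions only. Higher regions were 55.6% of these single-direction contacts, against 71.5% in the whole list. Contact with H3K27me3 was common, at 79 of 90 lower and 57 of 64 higher G9a regions (87.8% and 89.1%), against 48.4% and 41.5% in the whole list. H3K27me3 was touched by 46 of 51 lower and 60 of 66 higher H3K9me2 regions (90.2% and 90.9%), against 40.3% and 36.9% in the whole list, and by 61 of 69 lower and 32 of 40 higher Mef2c regions (88.4% and 80%), against 43.1% and 37.8%. These shares stand beside the 80.5% of the Hox windows that H3K27me3 regions cover.

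Genes tied to the Hox system were described by their listed regions. The 8 ParaHox and Evx genes, close relatives of Hox, had listed H3K27me3 regions on 73.3% of their windows, against 17.5% of all gene windows. Their signal was 682 and 633 per kb in KO and 725 and 648 in Cre. Of their 70 H3K27me3 regions, 40 were lower and 30 higher in KO (57.1% lower, against 63.3% in the whole list). The 14 genes that flank the clusters had 45.1% covered, with 191 regions lower and 117 higher (62.0% lower). The 9 Hox cofactors of the Pbx, Meis and Pknox families had 7.05% covered, with 57 regions lower and 65 higher (46.7% lower). The 17 Polycomb genes had 11.4% covered, with 41 regions lower and 41 higher (50% lower). The 10 trithorax and H3K27 demethylase genes had 1.42% covered, with 8 lower and 7 higher (53.3% lower). Among cofactors, Pknox2 had the highest -log10 p for 2 targets. Its G9a region in the authors' deposited list had 105 and 35 in KO and 481 and 384 in Cre, and its H3K27me3 region had 23 and 35 in KO and 194 and 244 in Cre.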

How the data were processed

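ChIP-seq of cardiomyocyte-enriched populations gave 18 libraries in 10 groups, 2 KO and 2 Cre for each of 4 targets and 1 input per genotype. Reads were aligned to mm10 (GRCm38), with BWA 0.7.10-r789 and SAMtools 1.1 named in the submitters' processing notes. The authors deposited 1 list per target of regions that differ between genotypes, each with 4 whole-number signal values (2 Cre, 2 KO) and a -log10 p, the smallest being 2. The caller, the scale of the values, the use of input and the depth are not stated in the sources used here. Direction is the deposited strand sign, and the order of the values, Cre before KO, was taken from the lists' names and checked against that sign. Because regions are listed for differing, the share apart at Hox was read against the share in the same list. The design text names H3K27me2 once where the title and labels name H3K27me3.

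Regions were assigned to a member when they overlapped its span or 5 kb either side (RefSeq, GRCm38.p6), and counted whole in sums. Log2 ratios used the group means with a pseudocount of 1. Regions were tested with limma 3.58.1 in R 4.3.3 on log2(value + 1), with a mean-variance trend and Benjamini-Hochberg adjustment over all listed regions. This procedure was also run on simulated data with 1 fixed spread and no choice of regions for differing. That setting differs from the deposited lists, so it does not measure the error of the procedure here. Sums were compared by an exact two-sided permutation test. Tables were made in Python 3.11.15 with pandas 2.3.3, numpy 2.4.6 and scipy 1.17.1, and figures with matplotlib 3.10.9. The members and lists were chosen with earlier results of these data known. Named regions were, per target and cluster, those of highest -log10 p in each direction, and for levels the members of highest and lowest H3K27me3 signal per kb of window in Cre. A few further regions and members, the dense regions outside Hox and the loci with several targets were chosen after their values were seen. Alternatives were other windows, overlap, -log10 p and mean minimums, scaling to the same median, another pseudocount, limma without trend and leaving out each value. Those for differences within a library and for member counts were added after the data were seen.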

Additional observations from a re-analysis of the deposited data

How the results depend on the processing

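Scaling the libraries to the same median listed value turned the direction of most sums. On the log2 scale G9a then stood at 0.20 over all Hox windows, 0.19 in cluster B, 0.24 in cluster D, 0.16 at anterior and 0.12 at central members. H3K9me2 stood at -0.19 over all windows, -0.20 in cluster A, -0.045 in C, -0.083 in D, -0.16 at anterior and -0.24 at posterior members. H3K27me3 stood at 0.16 over all windows, 0.18, 0.10, 0.15 and 0.21 in clusters A to D, and 0.13, 0.12 and 0.17 at anterior, central and posterior members. Of its Hox regions 30.4% were then lower in KO, with no whole-list share given at this setting. By limma 18 of 168 had an unadjusted p under 0.05, all 18 higher in KO, where without scaling 8 were lower and 1 higher. In the whole list 64731 of 504986 scaled regions had such a p, 24677 lower and 40054 higher. Mef2c stood at 0.049 over all windows, 0.24 in cluster A, 0.22 in C, and 0.043, 0.079 and 0.098 at anterior, central and posterior members. The Mef2c sum of cluster D was -0.25 and that of cluster B -0.026, with overlapping groups in cluster B.

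With the gene span alone G9a was 0.019 in cluster B, -0.059 in C, 0.037 in D and -0.014 at posterior members, and H3K9me2 was -0.094 in cluster A, -0.054 at anterior and -0.096 at central members. With 2 kb either side G9a in cluster D was 0.012 and H3K9me2 at anterior members -0.042. With regions lying mostly inside the windows G9a was -0.015 in cluster C and -0.024 at posterior members, and with regions of 1 position class -0.054 at posterior members. With a -log10 p of at least 5, H3K9me2 in cluster A was -0.019, and Mef2c was 0.071 in cluster C and 0.067 at central members. The share of Hox regions lower in KO was then 33.3% for H3K9me2 and 72.2% for H3K27me3, with no whole-list share given at this limit. Without the trend in limma 0 of 168 H3K27me3 regions at Hox had an unadjusted p under 0.05, against 51230 of 504986 in the whole list. The posterior minus anterior difference within a library turned for H3K9me2, to 0.36 with the gene span alone, 0.10 with 2 kb either side, 0.054 where the -log10 p reached 5 and 0.011 with regions of 1 position class, and for Mef2c to -0.22 with the gene span alone. The cause of these shifts was not tested. A pseudocount of 10 and a mean of at least 20 turned no direction and moved no count beyond 1.5 times.

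Leaving out each value in turn moved the limma counts at Hox to between 2 and 56 for G9a, 3 and 33 for H3K9me2, 4 and 31 for H3K27me3 and 4 and 27 for Mef2c, the highest G9a, H3K27me3 and Mef2c counts being without the first KO value and the highest H3K9me2 count without the first Cre value. The H3K27me3 share lower in KO ranged from 49.4% to 69.6%, lowest without the first Cre value. Log2 sums of G9a ranged from -0.31 to 0.066 over all windows, -0.39 to 0.13 in cluster B, -0.057 to 0.15 in C, -0.24 to 0.076 in D and -0.26 to 0.29 at posterior members. H3K9me2 in cluster A ranged from -0.11 to 0.30. H3K27me3 ranged from -0.26 to 0.0098 over all windows, -0.25 to 0.041 in cluster A, -0.21 to 0.062 in D and -0.27 to 0.049 at posterior members. The upper ends came without the second KO value for G9a and without the first Cre value for H3K9me2 and H3K27me3. Mef2c in cluster C ranged from -0.22 to 0.0090. The H3K27me3 difference between posterior and anterior members within a library ranged from -0.012 to 0.092. Among the alternative values 415 kept their side, 63 turned and 20 moved. No paired analysis was possible because the deposited values carry no replicate number. The depth is unknown, so no counting error can be given for a listed value, and the limma errors rest on 2 libraries per group.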
